A study of Mus musculus with 4 samples.

Results

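A set of 9 genes for growth and repair factors that immune cells can make, Igf1, Vegfa, Pdgfb, Hbegf, Osm, Gpnmb, Fn1, Arg1 and Gdf15, was followed across cell classes of the mouse brain after cardiac arrest (CA). They were taken by gene symbol and are 9 of the 32285 genes listed in the count files, and each had at least 1 transcript in every library. The cells came from C57Bl/6 wild-type mice, aged (18 to 20 months) or young (3 to 6 months), 3 days after CA or a sham operation. CA was brought on with potassium chloride (KCl) and followed by resuscitation, and sham mice had the surgery alone. The groups were aged CA, aged sham, young CA and young sham, each 1 library of 3 pooled mice. Brains were perfused and dissociated mechanically, and CD45+ cells, which are leukocytes, were sorted after enrichment on Percoll. With 1 library per group and mice that cannot be told apart within a pool, no value below has a replicate spread and no difference was tested. All intervals are 95% and cover counting error alone.

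The files give counts of unique molecular identifiers (UMIs), each standing for 1 captured transcript. Kept cells numbered 5888 in aged CA, 7538 in aged sham, 10131 in young CA and 8730 in young sham, with medians of 10432.5, 3130, 9857 and 6368 UMIs per cell in that order. Cells were assigned to classes by marker genes, none of which was a member gene, and a class is called X-like because its name rests on these markers. Microglia-like cells numbered 4763, 5696, 9115 and 8153 in the same order and made up 80.9%, 75.6%, 90.0% and 93.4% of kept cells. Monocyte-like cells (monocytes or macrophages derived from them) numbered 55, 18, 204 and 5. Border-macrophage-like cells numbered 12 to 40 per library, neutrophil-like cells 10 to 55, T- or NK-like cells 12 to 116 and neuron-like cells 85 to 152. Aged sham stood apart, with 913 CPM of haemoglobin (counts per 1000000 UMIs) against 1.05 to 66.6 CPM in the other libraries, and with 15.7% of barcodes passing the gates of more than 1 class against 3.01% to 3.77%. Every ratio to aged sham rests on that library. Pairs of libraries shared 15 to 32 barcodes.

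Insulin-like growth factor 1 (Igf1), platelet-derived growth factor B (Pdgfb), vascular endothelial growth factor A (Vegfa) and heparin-binding EGF-like growth factor (Hbegf) are secreted or shed ligands of receptor tyrosine kinases on neurons, glia and vessel cells. Oncostatin M (Osm) and growth differentiation factor 15 (Gdf15) are cytokines, the first an IL-6 family member that signals through gp130 and the second a stress-induced ligand of the hindbrain receptor GFRAL. Fibronectin (Fn1) is an extracellular matrix glycoprotein laid down in wounds, GPNMB is a membrane glycoprotein of lipid-handling macrophages, and arginase 1 (Arg1) turns arginine into ornithine and urea and marks reparative macrophages in mice.

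Promoter sequences in RefSeq (build GRCm38.p6) matched 4 of the 9 genes, and windows of 250 bases that end just before the annotated start and hold no annotated exon were found for 3 of them. Gpnmb and Gdf15 are shown because their ratios of aged CA to young CA in monocyte-like cells were the lowest of the 9 genes. Vegfa is shown because its microglial level was lower after CA at both ages, though that level is not told from background. The Gpnmb window is chr6:49036268-49036517 (plus strand), the Gdf15 window chr8:70632457-70632706 (minus strand) and the Vegfa window chr17:46032378-46032627 (minus strand). Each is printed 5′ to 3′, and capitals mark a motif match.
Gpnmb: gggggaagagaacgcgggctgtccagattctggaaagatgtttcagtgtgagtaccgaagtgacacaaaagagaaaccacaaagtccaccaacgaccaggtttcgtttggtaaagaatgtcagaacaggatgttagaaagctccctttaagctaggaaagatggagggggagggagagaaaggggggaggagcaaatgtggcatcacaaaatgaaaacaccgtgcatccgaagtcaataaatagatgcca
Gdf15: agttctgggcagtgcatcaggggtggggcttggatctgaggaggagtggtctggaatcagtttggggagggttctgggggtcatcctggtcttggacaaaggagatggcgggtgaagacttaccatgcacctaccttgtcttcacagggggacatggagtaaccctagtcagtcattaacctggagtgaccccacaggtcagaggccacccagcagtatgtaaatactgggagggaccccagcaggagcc
Vegfa: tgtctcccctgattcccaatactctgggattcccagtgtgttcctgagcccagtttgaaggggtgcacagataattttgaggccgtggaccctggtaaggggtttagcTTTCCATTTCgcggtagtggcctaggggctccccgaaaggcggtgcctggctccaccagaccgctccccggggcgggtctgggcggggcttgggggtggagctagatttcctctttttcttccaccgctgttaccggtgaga
The motifs searched on both strands were AP-1 (TGANTCA), the E-box (CACGTG), the core of the HIF site (ACGTG, which the E-box contains), CRE (TGACGTCA), C/EBP-ATF (TGATGCAA) and the interferon-response element ISRE. The Vegfa window held 1 ISRE match, TTTCCATTTC, which begins 142 bases before the start, and 2.98% of 32851 mouse promoter windows of that length held one. The printed Gpnmb and Gdf15 windows held none of the motifs. A second annotated start of Gdf15, whose window overlaps an exon and is not printed, had an E-box match 83 bases before it. The unprinted windows of a second Vegfa start and of Igf1, which also overlap exons, held a HIF core match 211 bases and an AP-1 match 37 bases before their starts. For comparison, 6.75% of all windows held AP-1, 6.02% the E-box, 16.6% the HIF core, 1.55% CRE and 0.791% C/EBP-ATF.

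Transcripts of the 9 genes lay in different cells (the plot of UMI shares by class). Microglia-like cells held 93.8% to 97.8% of Pdgfb UMIs, 84.3% to 96.2% of Osm UMIs and 70.3% to 93.1% of Hbegf UMIs in each library. Fn1 lay in different classes by condition. Microglia-like cells held 54.2% of its UMIs in aged CA and 78.9% in young CA, against 4.19% in aged sham and 12.6% in young sham. In the shams monocyte-like cells held 83.2% (aged, 18 cells) and 41.4% (young, 5 cells). In young sham 36 barcodes that passed more than 1 gate, the monocyte gate among them, held 248 Fn1 UMIs, beside 237 in monocyte-like cells. Gpnmb in young CA lay in monocyte-like cells (45.7% of 3973 UMIs) and in barcodes that passed more than 1 gate, with 4.30% in microglia-like cells. Arg1 lay in monocyte-like cells for 69.9% of 760 UMIs in aged CA and 45.4% of 964 in young CA, while the shams held 37 UMIs (aged) and 103 (young) in all.

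**Figure D1:**
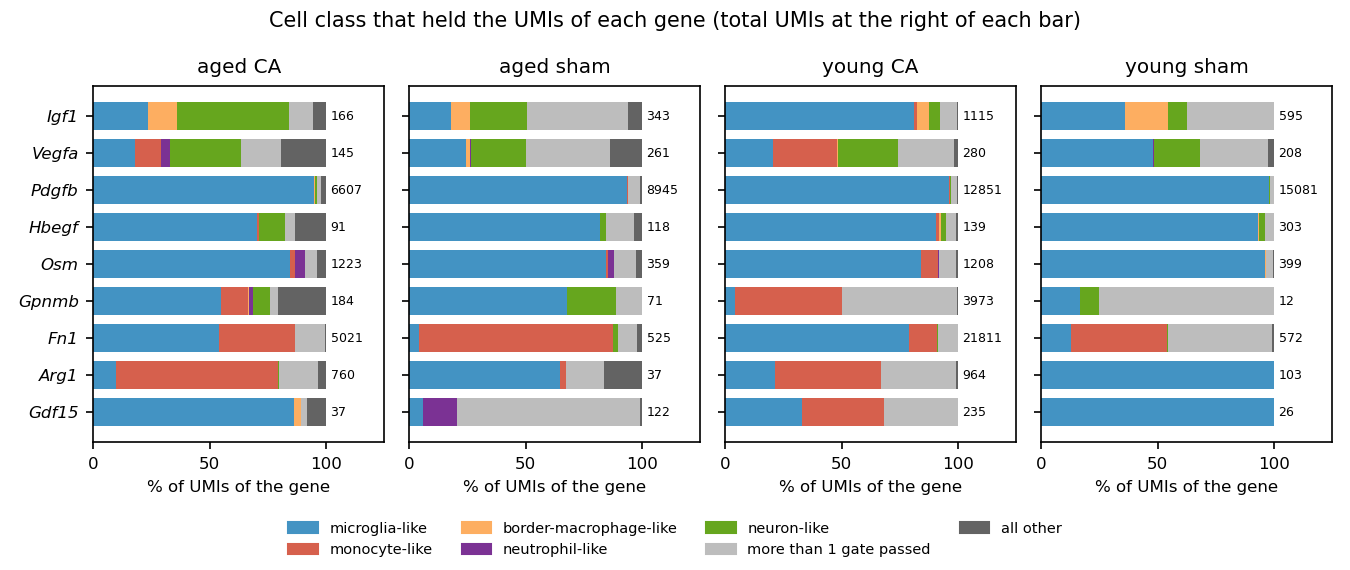
Share of each gene's UMIs (x axis, percent) held by each cell class, 1 panel per library, with the gene's total UMIs in kept barcodes printed beside its bar. Pdgfb, Osm and Hbegf bars are mostly microglia-like in every panel, while Gpnmb and Arg1 in young CA and Arg1 in aged CA are largely monocyte-like or from barcodes that passed more than 1 gate.

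In microglia-like cells Pdgfb, Hbegf and Vegfa were lower and Osm and Fn1 higher in CA than in sham at both ages, while Igf1 was lower in CA in aged and higher in young mice. The Igf1, Hbegf and Vegfa levels were low and were not told from background by T- or NK-like cells, as given below. In each comparison a gene was considered called when its CPM ratio was 2 or more, or 0.5 or less, among genes with at least 30 UMIs in the pair and a mean of at least 5 CPM. Of the 9 genes, 3 passed this filter for CA against sham in aged microglia-like cells and 4 in young ones. In aged cells Fn1 and Osm were called higher, where 6.18% of 10874 genes were, and Pdgfb was called lower, where 10.4% were. In young cells Fn1 and Igf1 were called higher, where 6.31% of 10682 genes were, and 0 were called lower, where 3.47% were. Fn1 passed the filter through the CA library alone, with shams at 0.667 CPM (aged) and 1.13 CPM (young). Igf1 in young did so too, with sham at 3.35 CPM. A gene low in both libraries, as Igf1 in aged, could not be called. Between ages, 0 of 2 tested members were called in sham, where 3.85% of 10832 genes were higher and 0.203% lower in aged. Between aged CA and young CA, Fn1 alone of 3 was called, as lower, where 3.59% of 10595 genes were lower and 2.45% higher. Under TMM scaling the young split of all genes for CA against sham was 940 higher and 229 lower, in place of 674 and 371.

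**Figure D2:**
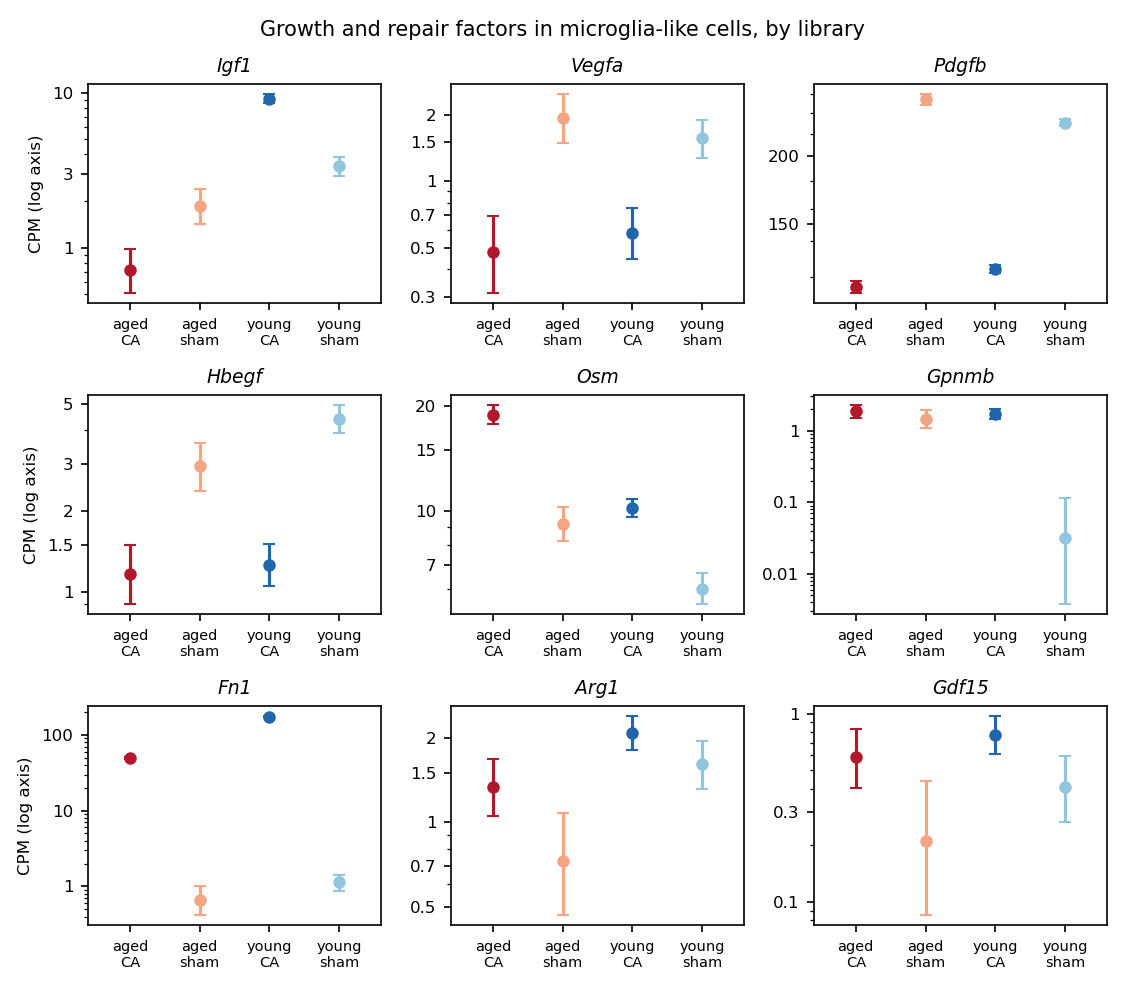
CPM of each gene in the summed counts of microglia-like cells (log y axes, which differ between panels) in the 4 libraries, with exact Poisson 95% intervals. Fn1 stands at 49.9 CPM in aged CA and 173 CPM in young CA against 0.667 and 1.13 CPM in the shams, and Igf1 is lowest in aged CA (0.714 CPM) and highest in young CA (9.11 CPM).

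Igf1, a survival and growth factor for neurons and oligodendrocytes, gave 0.714 CPM (interval 0.508 to 0.977) in aged CA, 1.85 CPM (1.41 to 2.38) in aged sham, 9.11 CPM (8.53 to 9.72) in young CA and 3.35 CPM (2.91 to 3.83) in young sham microglia-like cells. The aged CA library was the lowest and the young CA library the highest, and no intervals overlap. The aged levels are under the filter, so Igf1 was not counted as called there. CA over sham was 0.386 (0.252 to 0.587) in aged and 2.72 (2.34 to 3.18) in young, and Igf1 was 12.8-fold lower (9.26 to 18.1) in aged CA than in young CA. With a pseudocount of 1 CPM the aged log2 ratio of CA to sham was -0.73, inside 2-fold. Igf1 was seen in 26 of 4763 aged CA cells, 40 of 5696 aged sham cells, 349 of 9115 young CA cells and 105 of 8153 young sham cells. T- or NK-like cells, which should lack it, held 1 Igf1 UMI in 108 aged CA cells (1.04 CPM, median depth 8665 UMIs against 10892 in microglia-like cells) and 0 in the other libraries, where a count of 0 allows up to 3.04 CPM in aged sham, 14.2 CPM in young CA and 24.6 CPM in young sham. This class cannot tell the microglial levels of Igf1 from background, since in each library its level or limit lies above theirs. Cells with at least 3 Igf1 UMIs held 11 of 39 Igf1 UMIs in aged CA (3 cells) and 17 of 61 in aged sham (4 cells). They held 599 of 907 in young CA (101 cells) and 113 of 214 in young sham (24 cells). In young CA the 101 cells with at least 3 Igf1 UMIs had 5053 CPM of Spp1 against 818 CPM in the 8766 cells with none, and 715 against 1459 CPM of P2ry12, and their median depth was 18844 against 9517.5 UMIs.

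Border-macrophage-like cells gave higher Igf1 levels than microglia-like cells in every library: 59.6 CPM (36.9 to 91.2; 40 cells) in aged CA, 258 CPM (173 to 371; 12 cells) in aged sham, 197 CPM (149 to 255; 37 cells) in young CA and 485 CPM (398 to 585; 28 cells) in young sham. The CA library was the lower at each age, and these classes were too small for a ratio. Border-macrophage-like cells had medians of 4.5, 6, 6 and 7 class markers seen in the same order of libraries. Of them 30%, 33.3%, 5.41% and 0% had only the minimum of 3, and the part of gating in these levels was not tested. A single aged sham cell held 14 of the 29 Igf1 UMIs there, and without the cell with most UMIs the levels were 50.9 CPM in aged CA and 152 CPM in aged sham. Cells with border-macrophage markers among microglia-like cells also held more Igf1. In young CA it stood at 20.0 CPM in the 81 microglia-like cells with at least 2 such markers and 8.21 CPM in the 8053 with none, and in young sham at 39.8 CPM (40 cells) and 3.11 CPM (7413 cells). In aged sham the matching levels were 59.2 CPM (34 cells, 16 of the 61 Igf1 UMIs) and 1.11 CPM (5401 cells). In aged CA they were 3.67 CPM (17 cells, 1 UMI) and 0.602 CPM (4559 cells). The antisense gene Igf1os had 8, 7, 76 and 15 UMIs in aged CA, aged sham, young CA and young sham microglia-like cells beside 39, 61, 907 and 214 for Igf1, and how strand was counted is not given in the sources used here. Neuron-like cells gave 19.1, 28.0, 29.5 and 22.9 CPM of Igf1 in the same order of libraries, with overlapping intervals, and 5.26% to 11.4% of their cells had a UMI.

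Pdgfb, which recruits pericytes and smooth muscle cells to vessels, had a UMI in 53.6% to 64.9% of microglia-like cells by library. It stood at 115 CPM (112 to 118) in aged CA against 254 CPM (249 to 260) in aged sham, and at 124 CPM (122 to 127) in young CA against 231 CPM (227 to 235) in young sham. Both CA libraries were below both shams. CA over sham was 0.452 (0.438 to 0.467) in aged and 0.539 (0.526 to 0.552) in young, while aged over young was 1.10 (1.07 to 1.13) in sham and 0.925 (0.897 to 0.953) in CA. After thinning every cell to 1000 UMIs, 9.88% of aged CA, 20.2% of aged sham, 11.5% of young CA and 19.8% of young sham cells had a Pdgfb UMI, against unthinned shares of 55.8%, 53.6%, 56.2% and 64.9%. The share in T- or NK-like cells was 5.56% (6 of 108) in aged CA and 19.8% (23 of 116) in aged sham. An antisense gene within its span, Gm41361, had 223 to 426 UMIs per library in these cells.

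Hbegf, a ligand of the EGF receptor, stood at 1.17 CPM (0.903 to 1.5) in aged CA against 2.94 CPM (2.38 to 3.59) in aged sham, and at 1.27 CPM (1.05 to 1.51) in young CA against 4.41 CPM (3.91 to 4.96) in young sham. Vegfa, which drives vessel growth and permeability, stood at 0.476 CPM (0.311 to 0.698) in aged CA against 1.94 CPM (1.49 to 2.48) in aged sham, and at 0.583 CPM (0.442 to 0.753) in young CA against 1.56 CPM (1.27 to 1.90) in young sham. For each of these genes both CA libraries lay below both shams with no overlap of intervals, and all levels were under 5 CPM, so neither entered the counts of called genes. T- or NK-like cells had 0 Vegfa UMIs, which allows up to 3.13 CPM in aged CA, 3.04 CPM in aged sham, 14.2 CPM in young CA and 24.6 CPM in young sham. They had 1 Hbegf UMI in aged sham (1.01 CPM, 0.0256 to 5.64) and 0 elsewhere, so these low levels are not told from background. Neuronal markers in microglia-like cells summed to 43.5 CPM in aged CA against 124 CPM in aged sham, and to 27.9 CPM in young CA against 47.6 CPM in young sham. Their part in the Vegfa values was not tested. CA over sham was 0.399 (0.286 to 0.552) in aged and 0.287 (0.231 to 0.355) in young for Hbegf, and 0.246 (0.149 to 0.393) in aged and 0.373 (0.265 to 0.520) in young for Vegfa. With a pseudocount of 1 CPM the log2 ratios were -0.86 and -1.26 for Hbegf and -0.99 and -0.70 for Vegfa. In neuron-like cells Vegfa was 10.5 CPM in aged CA (44 UMIs), 20.9 CPM in aged sham (62 UMIs), 40.1 CPM in young CA (72 UMIs) and 19.1 CPM in young sham (41 UMIs), a CA over sham ratio of 0.503 (0.334 to 0.753) in aged and 2.10 (1.41 to 3.16) in young. Median depths of these neuron-like cells were 26555, 4334.5, 17084 and 24686 UMIs in the same order. Of them 4.70%, 17.8%, 5.26% and 10.6% had only the minimum of 3 markers. The part of depth and gating in these ratios was not tested.

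Osm, made by activated myeloid cells, stood at 18.9 CPM (17.8 to 20.1) in aged CA against 9.22 CPM (8.21 to 10.3) in aged sham, and at 10.2 CPM (9.61 to 10.9) in young CA against 6.01 CPM (5.42 to 6.64) in young sham microglia-like cells. The aged CA library was the highest. CA over sham was 2.05 (1.80 to 2.34) in aged and 1.70 (1.51 to 1.92) in young, and aged over young was 1.85 (1.69 to 2.02) in CA and 1.53 (1.32 to 1.79) in sham. The aged log2 ratio of 1.04 lost its call in cells with at least 5000 UMIs (0.92), with a pseudocount of 1 CPM (0.96) and in cells with no monocyte or border-macrophage marker (0.94). T- or NK-like cells had Osm in 6.48% of aged CA and 4.31% of aged sham cells, against 15.4% and 4.81% of microglia-like cells, whose median depth in aged sham was 3485.5 UMIs against 8173. The aged sham microglial share of Osm is therefore not told from that of T- or NK-like cells. Whether the Osm UMIs of T- or NK-like cells are background or their own transcripts was not tested. Neutrophil-like cells gave 88.5 CPM (65.2 to 117; 48 UMIs in 19 of 44 cells) in aged CA, 34.0 CPM (15.5 to 64.5; 9 UMIs in 6 of 55 cells) in aged sham, 17.9 CPM (3.70 to 52.4; 3 UMIs) in young CA and 0 UMIs in 10 young sham cells, which allows up to 26.0 CPM. In aged CA their level was above that of microglia-like and monocyte-like cells (18.8 CPM, 12.5 to 27.1).

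Gdf15 was scarce in microglia-like cells, with 32 UMIs in 9 cells of aged CA, 7 in 7 cells of aged sham, 77 in 24 cells of young CA and 26 in 21 cells of young sham. A single cell held 23 of the aged CA UMIs and another 37 of the young CA UMIs, so no difference is read from these levels. In aged sham 18 Gdf15 UMIs lay in 4 of 55 neutrophil-like cells (67.9 CPM, 40.3 to 107).

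Fn1 was higher in CA than in sham in microglia-like cells at both ages. It stood at 49.9 CPM (48.0 to 51.8) in aged CA against 0.667 CPM (0.418 to 1.01) in aged sham, and at 173 CPM (170 to 176) in young CA against 1.13 CPM (0.881 to 1.42) in young sham. CA over sham was 74.8 (49.3 to 120) in aged and 154 (122 to 196) in young, and Fn1 was 3.47-fold lower (3.33 to 3.61) in aged CA than in young CA. It was seen in 9.24% of aged CA, 0.351% of aged sham, 16.1% of young CA and 0.380% of young sham cells, and in 2.57%, 0.0987%, 5.75% and 0.0780% of them after thinning to 1000 UMIs. T- or NK-like cells had a Fn1 UMI in 1 of 108 cells in aged CA and 1 of 25 in young CA. The overlapping antisense gene Apol7d had 39 UMIs in aged CA and 63 in young CA microglia-like cells, beside 2723 and 17215 for Fn1.

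Fn1 transcripts were concentrated in a minority of microglia-like cells (the plot by number of Fn1 UMIs). In aged CA 203 of 4763 cells and in young CA 733 of 9115 cells had at least 3 Fn1 UMIs, and these cells held 2435 of 2723 and 16356 of 17215 Fn1 UMIs. In aged CA they had 721 CPM of Spp1 (osteopontin, a secreted matrix protein), against 49.4 CPM in cells with no Fn1 UMI, 766 against 1008 CPM of P2ry12, a homeostatic microglial receptor, and 83.1 against 118 CPM of Pdgfb. In young CA they had 3588 against 439 CPM of Spp1, 870 against 1563 CPM of P2ry12 and 93.9 against 131 CPM of Pdgfb. They were also deeper, with medians of 16702 against 10570 UMIs in aged CA and 18697 against 8962.5 in young CA, and the part of depth was not tested. Fn1 stood at 113, 89.8 and 42.9 CPM in aged CA cells with at least 2, with 1 and with 0 monocyte markers seen (30, 457 and 4276 cells), and at 158, 161 and 178 CPM in the matching young CA cells (196, 1637 and 7282 cells). All 8 monocyte markers were seen in microglia-like cells of every library, summing to 16.8 CPM in aged CA, 33.9 in aged sham, 46.3 in young CA and 17.1 in young sham.

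**Figure D3:**
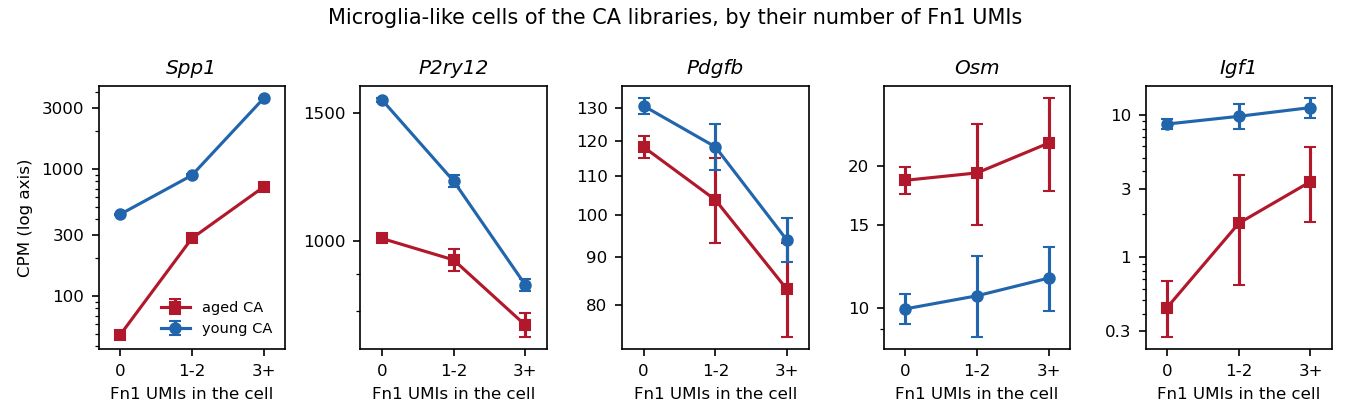
CPM of Spp1, P2ry12, Pdgfb, Osm and Igf1 (log y axes, which differ between panels) in microglia-like cells of aged CA and young CA with 0, 1 to 2, and 3 or more Fn1 UMIs, with exact Poisson 95% intervals. Spp1 is higher and P2ry12 and Pdgfb are lower in the cells with 3 or more Fn1 UMIs in both libraries.

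Gpnmb in microglia-like cells stood at 1.85 CPM (1.51 to 2.25; 101 UMIs in 25 cells) in aged CA, 1.46 CPM (1.07 to 1.93; 48 UMIs in 5 cells) in aged sham, 1.72 CPM (1.47 to 2.0; 171 UMIs in 83 cells) in young CA and 0.0313 CPM (0.00379 to 0.113; 2 UMIs in 1 cell) in young sham. The young sham library was the lowest and the other libraries overlapped, and 1 cell held 23 of the 48 aged sham UMIs. CA over sham was 1.27 (0.893 to 1.83) in aged and 54.9 (15.0 to 457) in young. With a pseudocount of 1 CPM the young log2 ratio was 1.40 in place of 5.78. T- or NK-like cells had 0 Gpnmb UMIs in aged CA and aged sham, which allows more than the microglial levels there. The aged levels are thus not told from background by this class. The aged log2 ratio of 0.35 was 3.76 without the deepest 5% of barcodes and -0.88 in cells with no monocyte or border-macrophage marker. Arg1 in microglia-like cells stood at 1.34 CPM in aged CA, 0.728 CPM in aged sham, 2.08 CPM in young CA and 1.61 CPM in young sham. T- or NK-like cells gave 6.25 CPM (6 UMIs), 6.07 CPM (6 UMIs), 23.7 CPM (5 UMIs) and 0 in the same order, and the 0 allows up to 24.6 CPM, so the microglial Arg1 level is not told from background in any library.

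In monocyte-like cells Gpnmb and Gdf15 were lower and Arg1 and Fn1 higher in aged CA than in young CA, over 55 and 204 cells with medians of 26295 and 19208 UMIs. Of the 9 genes 7 passed the filter there. Arg1 alone was called higher in aged CA, where 6.21% of 9027 genes were, and Gpnmb, Gdf15 and Pdgfb were called lower, where 11.3% were. Gdf15 (0 CPM in aged CA against 21.7 CPM in young CA) and Pdgfb (2.68 against 9.42 CPM) passed the filter through young CA alone.

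**Figure D4:**
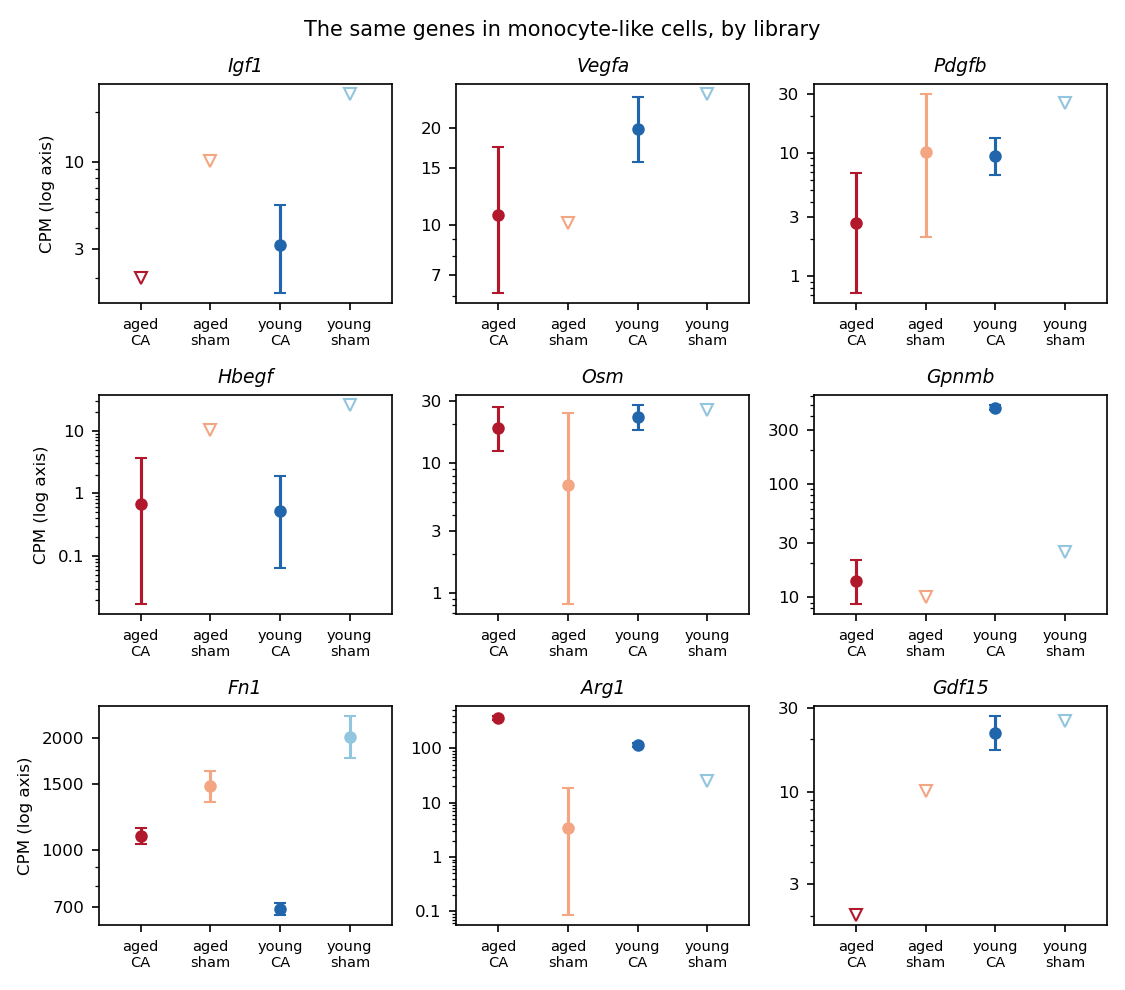
CPM of each gene in monocyte-like cells (log y axes, which differ between panels) with exact Poisson 95% intervals; an open triangle marks a library with 0 UMIs, drawn at the level that 3 UMIs would give. Gpnmb stands at 14.1 CPM in aged CA and 475 CPM in young CA, and the shams, with 18 (aged) and 5 (young) cells, have 0 UMIs of it.

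Gpnmb stood at 14.1 CPM (8.72 to 21.5; 21 UMIs in 7 of 55 cells) in aged CA against 475 CPM (454 to 498; 1815 UMIs in 91 of 204 cells) in young CA, 33.7-fold lower (22.01 to 54.6) in aged CA. At least 3 Gpnmb UMIs were found in 4 aged CA cells and 73 young CA cells. In young CA these 73 cells had 1657 CPM of Fabp5, a fatty acid carrier, against 116 CPM in the 113 cells with no Gpnmb UMI, 962 against 226 CPM of Spp1, and 511 against 839 CPM of Fn1. Fn1 itself reached at least 3 UMIs in 53 of the 73 cells. Gdf15 had 0 UMIs in aged CA, which allows up to 2.01 CPM, against 83 UMIs in 22 cells (21.7 CPM, 17.3 to 26.9) in young CA. With 3 UMIs in place of the 0 it would be 10.8-fold lower. The counting interval of the ratio reaches 0.116, which allows a somewhat smaller difference.

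Arg1 in monocyte-like cells stood at 356 CPM (326 to 388; 531 UMIs in 21 of 55 cells) in aged CA against 115 CPM (104 to 126; 438 UMIs in 42 of 204 cells) in young CA. The ratio was 3.11 (2.73 to 3.53) by summed counts and 1.09 on the log2 scale after thinning, in place of 1.63. A single aged CA cell held 204 of its 531 UMIs and 13 cells had at least 3, and without the cell with most UMIs in each library the log2 ratio was 1.28. In young CA 11 of the 204 cells had at least 3 UMIs of each, 15.1% of the 73 Gpnmb cells and 57.9% of the 19 Arg1 cells, and in aged CA 1 cell did. Fn1 stood at 1090 CPM (1038 to 1145) in aged CA and 694 CPM (668 to 721) in young CA, a ratio of 1.57 (1.48 to 1.67), and the few sham cells gave 1479 CPM (aged) and 2008 CPM (young). Pdgfb (4 UMIs in aged CA and 36 in young CA), Vegfa (16 and 76 UMIs), Osm (28 and 86), Hbegf (1 and 2) and Igf1 (0 and 12) were scarcer. Vegfa stood at 10.7 CPM (6.13 to 17.4) in aged CA and 19.9 CPM (15.7 to 24.9) in young CA, and Osm at 18.8 CPM (12.5 to 27.1) and 22.5 CPM (18.0 to 27.8), with overlapping intervals for each. The ratio of aged CA to young CA was 0.539 (0.293 to 0.933) for Vegfa and 0.834 (0.524 to 1.29) for Osm. With the barcodes that passed more than 1 gate added, the Pdgfb log2 ratio was -0.62 in place of -1.81, which ends its call. Without the cell with most UMIs the Vegfa log2 ratio was -2.23 in place of -0.89.

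Other genes also set the monocyte-like cells of aged CA and young CA apart. Ly6c2, a marker of classical monocytes, stood at 192 CPM in aged CA against 1904 CPM in young CA, Ms4a7, a macrophage marker, at 14.1 against 359 CPM, and Fabp5 at 81.1 against 697 CPM. Neutrophil markers were higher in aged CA: 6 of 11 were seen there, summing to 6265 CPM and led by S100a8 at 3799 CPM, against 9 of 11 and 203 CPM in young CA, while Retnlg, Camp, Ltf, Ngp and Ly6g were at 0 in aged CA. Microglial markers summed to 140 CPM (9 of 10 seen) in aged CA and 277 CPM (10 of 10) in young CA. Other monocyte and macrophage genes differed less or the other way, with Chil3 at 3230 CPM in aged CA against 2774 CPM in young CA, Ccr2 at 689 against 810 CPM, C1qa at 483 against 392 CPM and Apoe at 7217 against 7304 CPM. The part of these differences in the member values was not tested.

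In the remaining classes with at least 50 cells in both libraries, called members were few. For CA against sham in young neuron-like cells Vegfa and Fn1 were called higher, where 4.56% of genes were, and 0 members lower, where 2.32% were. The Vegfa log2 ratio of 1.07 was 0.96 under TMM scaling, which ends its call. Fn1 rested there on 29 and 3 UMIs, and its log2 ratio of 3.53 was -1.57 with the mean of per-cell CPM. In aged neuron-like cells 0 of 3 tested members were called, where 7.13% of genes were higher and 4.32% lower. Vegfa, at a log2 ratio of -0.99 there, was at -1.14 under TMM scaling. In aged T- or NK-like cells Pdgfb (9 and 29 UMIs) was called lower, where 8.25% of genes were, and 0 members higher, where 6.62% were. Between ages Pdgfb was called lower in aged sham neuron-like cells, where 1.93% of genes were, and 0 members higher, where 2.41% were. That Pdgfb log2 ratio of -1.21 was 0.03 with barcodes of more than 1 gate given to a class. In aged CA against young CA neuron-like cells Vegfa (10.5 against 40.1 CPM) and Fn1 (9 against 29 UMIs) were called lower, where 4.72% of genes were, and 0 members higher, where 4.74% were. Both Fn1 calls in neuron-like cells passed the filter through the young CA library alone, which gave 16.2 CPM. The aged CA library gave 2.15 CPM of Fn1 there, and the young sham library gave 1.40 CPM.

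Genes around these factors were described in microglia-like cells through 7 lists. Over all genes tested, 6.18% were at least 2-fold higher and 10.4% lower after CA in aged, and 6.31% higher and 3.47% lower in young, and each list's counts stand against these shares. Of 17 lysosome and lipid-associated macrophage genes 16 were tested, and 8 in aged and 10 in young were at least 2-fold higher after CA, with median log2 ratios of 0.98 and 1.70, beside 0.02 and -0.07 over all genes tested. Spp1 stood at 108 CPM in aged CA against 22.5 CPM in aged sham, and at 927 CPM in young CA against 0.907 CPM in young sham. Lgals3 (galectin-3) stood at 74.5 against 17.1 CPM in aged and 49.2 against 3.82 CPM in young, while Trem2, the lipid-sensing receptor, had ratios of 0.806 and 0.880, Cd9 0.748 in aged, and Ctsd 1.11 in young.

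Of 40 other growth factors and repair cytokines 20 were tested; after CA 2 were called higher and 3 lower in aged (median log2 ratio -0.25), and 4 higher and 1 lower in young (-0.08), so the lower counts were close to the shares over all genes. Spp1, which is also on this list, had the highest ratio at each age. Hgf (hepatocyte growth factor) was 22.1 CPM in aged CA against 5.40 CPM in aged sham, and Csf1, the survival factor of microglia, 72.5 CPM in young CA against 15.0 CPM in young sham. Nrg1 (13.6 against 52.7 CPM in aged), Fgf13 (154 against 334 CPM in aged and 343 against 632 CPM in young) and Il6 (6.00 against 12.2 CPM in young) were the lowest ratios. In monocyte-like cells, aged CA over young CA was called lower for 9 of 16 genes of this list and for 9 of 16 lysosome and lipid genes, with medians of -1.19 and -1.32 beside -0.04 over all genes tested, of which 11.3% were lower. Of the same lists 1 and 0 genes were called higher, where 6.21% of all genes were.

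Of 22 receptors for the member factors 14 were tested, with 4 higher and 2 lower in aged (median log2 ratio 0.08) and 1 higher and 1 lower in young (0.02), the young counts being close to the shares over all genes. Sdc4, a fibronectin co-receptor, was 47.0 CPM in aged CA against 12.3 CPM in aged sham, Lifr 258 against 106 CPM, Nrp1, a VEGF co-receptor, 52.6 against 179 CPM, and Erbb4 6.30 against 26.0 CPM. In young, Cd44 had 10.6 CPM in CA against 4.16 CPM in sham, Itga5, the fibronectin receptor subunit, 30.3 against 17.2 CPM, Il6st, which encodes gp130, 131 against 252 CPM, and Erbb4 3.47 against 11.3 CPM.

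The integrated stress response list, which holds known inducers of Gdf15, had 3 of 10 tested genes higher and 0 lower at each age (medians 0.72 in aged and 0.43 in young). Ddit4 stood at 94.0 CPM in aged CA against 4.21 CPM in aged sham and at 124 CPM in young CA against 14.5 CPM in young sham, and Psat1 at 48.6 against 11.2 CPM and 65.2 against 9.46 CPM, while Nupr1 (ratios 0.565 and 0.924), Ddit3 (0.739 in aged) and Sesn2 (0.780 in young) were lowest. Of 9 tested hypoxia genes, aged had 0 higher and 1 lower (median 0.23) and young 2 higher and 0 lower (0.33), with Pfkfb3 (1.97) and Hilpda (1.78) highest and Hk2 (0.420) and Pdk1 (0.837) lowest in aged, and Ldha (2.24) and Pgk1 (2.21) highest and Hk2 (0.683) and Pdk1 (0.935) lowest in young. Of 4 tested arginine and alternative activation genes, aged had 2 higher, Il4ra (2.35) and Slc7a1 (2.01), with Odc1 at 1.30, and 1 lower, Mrc1 (0.263), which is also a border-macrophage gate marker (median 0.70), and young had none past 2-fold (median -0.13), with Il4ra at 1.64, Odc1 at 0.999, Slc7a1 at 0.839 and Mrc1 at 0.611. Of 11 IGF binding and release genes, Igfbp6 was 11.2 CPM in aged CA against 0.849 CPM in aged sham and Igfbp4 4.71 against 14.5 CPM, and Igfbp4 alone was tested in young (10.2 CPM in CA against 14.7 CPM in sham).

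**Figure D5:**
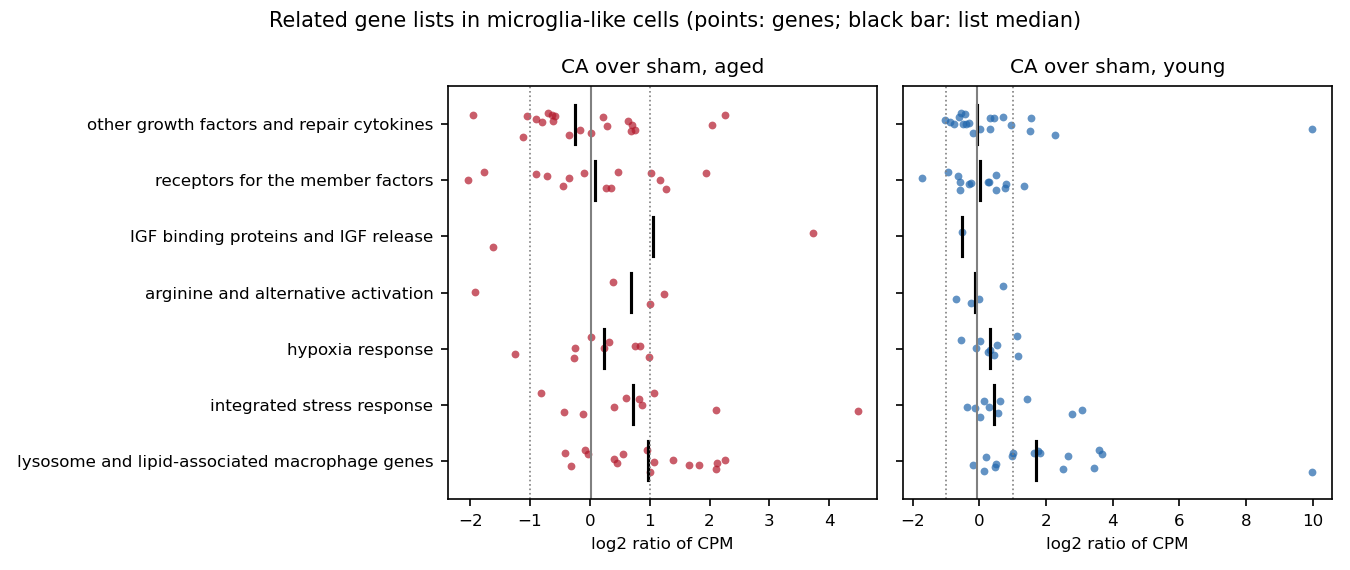
Log2 ratio of CPM, CA over sham, in microglia-like cells of aged (left) and young mice (right) for the genes of 7 lists that passed the filter; black bars are list medians, the grey line is the median of all genes tested and dotted lines mark 2-fold. The lysosome and lipid-associated list has medians of 0.98 and 1.70, with all-gene medians of 0.02 and -0.07.

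Likeness to other genes was measured as Pearson's r of log2(CPM + 1) over 13 class and library combinations of at least 50 cells, which share libraries and depth, and is given as a description. Fn1 was nearest to Ecm1 (r = 0.96), Apoc1 (0.95) and Siglec1 (0.92), Gpnmb to Nr1h3 (0.94), Hpse (0.92) and Myof (0.90), and Arg1 to Nlrc4 (0.96), F13a1 (0.96) and Ms4a8a (0.95). Pdgfb was nearest to Ctc1 (0.98), Rasgrp3 (0.98) and Gm35188 (0.97), Osm to Sertad3 (0.99) and Serp1 (0.99), and Igf1 to Unc13a (0.95), Alms1 (0.95) and Ccdc138 (0.94). Vegfa was nearest to Olfm1 (0.94), Rnf217 (0.94) and Plcb1 (0.93), and Hbegf to Caap1 (0.92), Exd1 (0.91) and Kcnk12 (0.89), while Gdf15, with 245 UMIs in gated cells, was below the minimum of 500.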

How the data were processed

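Each library was deposited as a matrix of raw UMI counts per gene and barcode. Per the submitters' processing notes the authors used Cell Ranger 7.1.0 on mm10, and per the labels' protocols the 10x Genomics 3′ chemistry. Cell calling, annotation and counting strand are not given in the sources used here. Barcodes with at least 500 UMIs, 200 genes and at most 10% mitochondrial UMIs were kept. Total UMIs were 70924569 in aged CA, 44277472 in aged sham, 115892682 in young CA and 72648041 in young sham. There were 9 marker lists of 7 to 14 genes. A barcode went to the class with the largest share of its list seen, if at least 3 markers were seen, and was left out when a second list also had 3 with over 0.5 of that share. No doublet caller was run. No class had markers of another class among its 10 leading genes by fold, but cells were gated on these markers, so this does not measure the purity of the classes. UMIs of all cells of a class in a library were added up and divided by the class total to give CPM, with exact Poisson intervals. Ratios have Clopper-Pearson intervals of the count split, and shares were recomputed in cells thinned to 1000 UMIs. Ratios were taken where both libraries had at least 50 cells of a class. A count of 0 was set at 3 UMIs for bounds. PCR and droplet capture make intervals cover counting error only.

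Every member was described. For each list, the genes with the 2 highest and 2 lowest ratios of CA to sham in microglia were named. Other named genes were chosen after their values were seen: Fabp5, Ly6c2, Ms4a7, P2ry12, Spp1 by cell group, S100a8, Chil3, Ccr2, C1qa and Apoe, and for likeness the 3 genes of highest r were taken, of which 1 for Osm is not reported here. Members and lists were chosen with earlier results of these data known. Positions came from GENCODE M21 on GRCm38, and the first of 2 rows named Ddit3 was used (5803 UMIs, the other row 0). The scripts were tested on simulated counts. A first criterion, that altered genes under the filter be called too, was not met and was then relaxed to genes that pass the filter, so this test lends no support to the calls. Python 3.11.15, numpy 2.4.6, scipy 1.17.1, pandas 2.3.3, matplotlib 3.10.9, R 4.3.3 and edgeR 4.0.16 (TMM factors only) were used. Alternatives covered gates, depth, mitochondrial and haemoglobin limits, scaling, thinning, pseudocount and the filter on low counts.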

Additional observations from a re-analysis of the deposited data

Results flagged for a closer look

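Igf1 in microglia-like cells differed in direction between the ages under the same contrast, with a ratio of CA to sham of 0.386 in aged and 2.72 in young. The aged CA level (39 UMIs in 26 cells) is not told from background, and with a pseudocount of 1 CPM the aged log2 ratio was -0.73, inside 2-fold. The difference was not tested, since each group is 1 library, and the aged sham library that enters the aged ratio stood apart in depth and haemoglobin. In microglia-like cells with no border-macrophage marker seen, Igf1 stood at 0.602 CPM in aged CA against 1.11 CPM in aged sham. The matching young levels were 8.21 CPM in CA and 3.11 CPM in sham.

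Barcodes that passed more than 1 gate were left out of the classes, and several genes were above their sham levels there. The largest mixtures were microglia with neurons in aged CA (35 barcodes), aged sham (453) and young sham (110), and microglia with monocytes in young CA (140). In aged sham 240 more passed the microglia and neutrophil lists, with a median of 1437.5 UMIs. The CA and sham levels thus do not compare like cells. Osm stood at 17.4 CPM in aged CA against 6.27 CPM in aged sham, and at 12.5 CPM in young CA against 2.25 CPM in young sham. Gpnmb stood at 274 CPM in young CA against 1.69 CPM in young sham. Fn1 stood at 169 CPM in aged CA against 8.12 CPM in aged sham, and at 262 CPM in young CA against 47.8 CPM in young sham. Arg1 stood at 34.1 CPM in aged CA against 1.11 CPM in aged sham, and at 42.8 CPM in young CA against 0 UMIs in young sham. Gdf15 stood at 10.4 CPM in young CA against 0 UMIs in young sham, and the other way in aged mice, at 0.264 CPM in aged CA against 17.7 CPM in aged sham. In aged sham 73 Gdf15 UMIs lay in the 240 barcodes that passed the microglia and neutrophil lists. Of these barcodes, 244 in young CA passed the monocyte list and held 1972 Gpnmb UMIs, and 67 in aged CA did so and held 1. Doublets and cells with markers of more than 1 class cannot be told apart here.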

How the results depend on the processing

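No paired analysis was possible because each group is 1 library. No replicate could be left out for the same reason. The setting without the filter on low counts leaves every single ratio as reported, so its values count as unchanged by construction. Of 985 log2 ratios of single members under other settings, that setting included, 877 stayed within the counting interval of the reported value. Of the others 6 that were at least 2-fold changed sign (44 changed sign in all). The 6 were Gdf15 in aged microglia-like cells, at -0.42 (log2) with barcodes of more than 1 gate given to a class and at -0.14 without the cell with most UMIs, and Gdf15 in monocyte-like cells between CA libraries, at 1.47 after thinning, where the aged count of 0 is set at 3 UMIs. In neuron-like cells they were Pdgfb for age in sham, at 0.0336 with barcodes of more than 1 gate given to a class, and Fn1 with the mean of per-cell CPM, at -1.57 for CA against sham in young and -4.03 for age in sham. Of 118 counts of called members, 85 were within 1.5 times the reported count.

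Reported counts in microglia-like cells were 3 for CA against sham in aged, 2 in young, 0 for aged against young in sham and 1 in CA. Without the filter on low counts they were 7, 5, 2 and 2. The last count was also 3 with barcodes of more than 1 gate assigned, and 2 with at least 5000 UMIs, TMM scaling, thinning, or no monocyte or macrophage marker seen. In the other classes the reported counts were 1 for CA against sham in aged, 2 in young, 1 for age in sham and 6 for age in CA. For CA in aged they were 2 with gates of 2 or 4 markers, without the deepest 5% of barcodes, with TMM or without the top cell, 4 with barcodes of more than 1 gate assigned, 5 with these added to monocyte-like cells, 0 thinned and 3 unfiltered. For CA in young they were 4 with barcodes assigned, 0 without the deepest 5% or thinned, and 1 with the mean of per-cell CPM, with TMM or without the top cell. For age in sham they were 0 with gates of 2 markers, barcodes assigned, no deepest 5% or thinning, 2 with per-cell means and 4 unfiltered. For age in CA they were 10 with barcodes assigned, 0 without the deepest 5% and 2 thinned. Leaving out the deepest 5% and thinning leave fewer cells or UMIs, and elsewhere the cause was not tested.

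Scaling by TMM put the median log2 ratio of all microglial genes at 0.11 (aged) and 0.12 (young) for CA over sham, against 0.02 and -0.07 as reported, and the young split was then 940 higher and 229 lower in place of 674 and 371. In young neuron-like cells it was 324 and 302 in place of 445 and 226, and in aged ones 545 and 682 in place of 785 and 475. With the mean of per-cell CPM it was 1142 and 971 in young neuron-like cells, and for age in sham 973 and 1268 in place of 251 and 201. By the same mean it was 1462 and 1182 in aged neuron-like cells, and 1135 and 1315 in place of 523 and 521 for age in CA. For age in sham microglia-like cells the split was 752 and 59 by that mean and 700 and 94 after thinning, in place of 417 and 22. Thinning left 81 and 265 in monocyte-like cells in place of 561 and 1018, 88 and 116 in T- or NK-like cells in place of 478 and 596, and in neuron-like cells 112 and 81 (CA, aged), 38 and 35 (CA, young), 42 and 37 (age, sham) and 78 and 55 (age, CA). The alternatives on single cells and gates (no monocyte or macrophage marker, monocyte-like cells with barcodes of more than 1 gate, no top cell in any class) were chosen after seeing the data. Fewer than 50 monocyte-like cells in the shams limit any reading of CA there, and levels under 5 CPM rest on few UMIs.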
